A study of Mus musculus with 24 samples.

Results

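Brain endothelial cells that carried a deletion of Bmal1 were compared between the 2 sides of the day, with dusk formed by ZT10 and ZT14 and dawn by ZT22 and ZT2. Zeitgeber time (ZT) counts hours from lights on. The comparison used 8 of the 24 libraries of the series, 4 at dusk and 4 at dawn, set by genotype and time point, and it addressed which time-of-day differences remained without Bmal1 in the endothelium. Each library came from a single mouse, with 2 mice at each of the 4 time points.

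The mutants were Bmal1fl/fl; Tie2cre mice of the C57BL/6J strain. Both alleles of Bmal1 (listed as Arntl) are flanked by loxP sites, and the recombinase is driven by the Tie2 promoter, which is also active in blood-forming cells. Bmal1 in cells outside the endothelium, such as those of the central clock, was not measured here. The controls, Bmal1fl/fl mice of the same strain with no recombinase, were sampled at the same times and gave 8 further libraries (4 dusk, 4 dawn), which share no sample with the mutant comparison. The age of the mice was not given in the sources used here. All mice ate freely under equal light and dark phases, and cells were sorted by antibody to CD31, an endothelial surface protein.

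The molecular clock of most cells is a feedback loop. BMAL1 pairs with CLOCK or NPAS2 on E-box DNA to activate the Per, Cry and Nr1d genes, whose proteins repress BMAL1 or its activity, and the output factors Dbp, Tef and Hlf pass the rhythm on to further genes. Cells without BMAL1 lose this oscillator, but they still receive daily signals from the rest of the body, among them glucocorticoid hormone, feeding, body temperature and blood flow. In nocturnal rodents glucocorticoids peak around the onset of the dark phase, and Per1 responds to both the clock and the hormone.

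The 8 mutant libraries held between 6199072 and 6577585 deposited reads and all carried the same i5 index. By their library numbers, however, the 2 ZT14 libraries belonged to another series than the other 6, and ZT14 is confounded with that series. The endothelial identity was clear, with Flt1 at 28505 to 35791 reads at dusk and 30675 to 34652 at dawn, and the 12 endothelial markers together took 1.28% ± 0.134 of the reads at dusk and 1.25% ± 0.0831 at dawn (mean ± SD, n = 4 each; exact permutation test, two-sided, p = 0.714). Reads of other cells were present too. Mural markers took 0.169 to 0.286% at dusk and 0.169 to 0.275% at dawn, microglial and macrophage markers 0.288 to 0.478% and 0.198 to 0.494%, astrocyte markers 0.169 to 0.331% and 0.168 to 0.209%, and oligodendrocyte markers 0.0845 to 0.191% and 0.0973 to 0.15%. Of the 7 platelet and leukocyte markers, Cd3e (T cells), Cd79a (B cells) and S100a8 (neutrophils) were at 0 in all 8 libraries, S100a9 (neutrophils) was at 0 in 7 and at 9 reads in a dawn library, and the platelet markers Pf4, Ppbp and Itga2b had reads in all 8, from 15 to 117 at dusk and 15 to 93 at dawn. Mitochondrial genes took 5.78 to 10.7% at dusk and 6.92 to 14.3% at dawn, the highest being the 2 ZT2 libraries. The 11 shares had an adjusted p of 0.943 each (exact permutation tests), but the smallest unadjusted p this design allows is 0.0286, with which a single share cannot pass adjustment over 11, so these tests do not show equal shares. In a sorted population, fewer cells of a type and less RNA per cell cannot be told apart.

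With a working Bmal1, its own transcript swings strongly over the day. Control libraries held 1, 22, 15 and 13 Arntl reads at dusk (ZT10 first, then ZT14) and 468, 234, 439 and 466 at dawn (ZT22, then ZT2). The mutant libraries held 120, 169, 251 and 354 reads at dusk and 242, 205, 243 and 259 at dawn. Controls were thus separated without overlap and mutants overlapped fully, with a mutant log2 fold change of -0.07 ± 0.27 (SE) against -4.89 ± 0.48 in controls. Reads were counted over the whole gene, so this level does not measure the deleted part itself.

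Outside the comparison, 2 libraries went against their labels in the genes that separated the genotypes. The library labelled mutant ZT6 replicate 1 held 81 Arntl, 0 Npas2, 536 Mmp15 and 27 Fam124b reads, where mutant ZT6 replicate 2 held 276, 229, 1587 and 377 and the 2 control ZT6 libraries 99 and 57, 1 and 10, 531 and 677, and 23 and 54. The library labelled control ZT18 replicate 2 held 305 Npas2, 1264 Mmp15 and 253 Fam124b reads, where control ZT18 replicate 1 held 3, 529 and 93 and the mutant ZT18 libraries 170 and 331, 1231 and 1144, and 435 and 350. Mutant ZT6 replicate 1 also held 20 Nr1d1, 87 Dbp and 55 Ciart reads. Control ZT6 held 1765 and 990, 1197 and 861, and 211 and 146, and control ZT18 replicate 1 held 43, 68 and 26. Control ZT18 replicate 2 held 282, 159 and 87, and mutant ZT6 replicate 2 held 198, 216 and 69. Mutant ZT18 held 19 and 12, 42 and 56, and 72 and 38. Arntl in mutant ZT6 replicate 1 was nearer control ZT6, as control ZT18 replicate 1 held 267. Whether the 2 labels were exchanged was not tested. Neither of the 2 is among the 8 mutant or 8 control libraries compared between dusk and dawn. Values that used them are given with and without them.

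In the mutants, 20 of 15493 genes tested were higher at dusk (0.129%) and 0 were higher at dawn (0%) by edgeR's quasi-likelihood test at a Benjamini-Hochberg adjusted p under 0.05. At an unadjusted p under 0.05 the counts were 505 genes higher at dusk (3.26%) and 403 higher at dawn (2.6%). DESeq2 called 71 and 10, and limma-voom 14 and 0. The 20 genes had log2 fold changes of 0.87 to 3.01 with a median of 1.23, against a median of -0.01 over all genes tested. Each of the 20 had all 4 dusk libraries above all 4 dawn libraries, a separation in that direction that 1.85% of all tested genes showed. The genes were called from these same libraries, so the separation is no further support. They included glucocorticoid-responsive genes, transport and metabolic enzymes, a Wnt receptor, a potassium channel and matrix proteins.

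**Figure D1:**
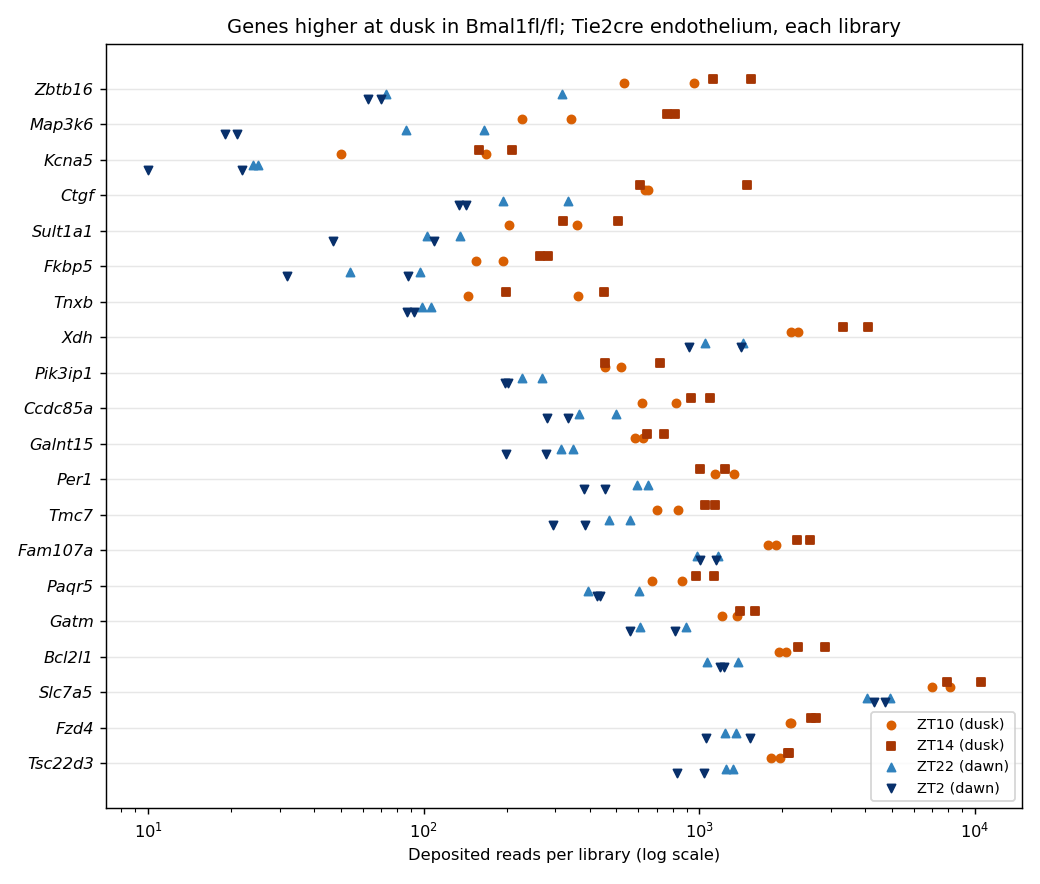
Deposited reads per library (x axis, log scale) of the 20 genes higher at dusk in mutants (y axis, in order of fold change). Each point is a mouse, with ZT10 and ZT14 in orange and brown and ZT22 and ZT2 in light and dark blue. For every gene the 4 dusk libraries lie to the right of the 4 dawn libraries; 19 of the 20 means were highest at ZT14 and 18 lowest at ZT2.

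This count depended on which libraries were kept. Without mutant ZT2 replicate 1, ZT2 replicate 2 or ZT14 replicate 2, 0 genes passed, without ZT14 replicate 1 4 passed, without ZT22 replicate 2 2 passed, and without ZT10 replicate 2 51 passed. ZT10 alone against dawn gave 0 genes higher at dusk, and ZT14 alone gave 118. Under every one of the 27 alternatives tried all 20 genes kept their direction and an unadjusted p under 0.05.

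Of the 15 gene lists, that of glucocorticoid-responsive genes, put together with earlier results of these data known, held the most calls. Of its 17 members tested, 5 were higher at dusk (Zbtb16, Sult1a1, Fkbp5, Per1 and Tsc22d3) and 0 higher at dawn, against 0.129% and 0% of all genes. At an unadjusted p under 0.05, 9 were higher at dusk, against 3.26% of all genes, and 16 of 17 had a log2 fold change above 0, as did 48.6% of all genes. The median log2 fold change was 0.50 in mutants and 0.52 in controls, where 6 members were called, against 0.258% of all genes higher at dusk. Because of how the list was made, these shares are no independent result about it. Hormone levels were not measured here.

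Zbtb16 (chr9:48654297-48836222, GRCm38) encodes a zinc finger transcriptional regulator that is a known hormone target. The mutant libraries held 959, 533, 1122 and 1545 Zbtb16 reads at dusk and 317, 73, 70 and 63 at dawn. The dawn library with 317 reads, ZT22 replicate 1, stood well above the other 3 but below every dusk library. This was the largest fold among the 20 genes, 8.06-fold higher at dusk (log2 3.01 ± 0.45 (SE), adjusted p = 0.0119), and controls showed 7.52-fold. Without ZT22 replicate 1 the mutant difference was 15.4-fold (log2 3.95).

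Fkbp5 (chr17:28399094-28517527), a co-chaperone that dampens the glucocorticoid receptor and is induced by it, held 194, 155, 264 and 283 reads at dusk and 54, 97, 32 and 88 at dawn. Its highest dawn library stayed below its lowest dusk library. The level was 3.36-fold higher at dusk (log2 1.75 ± 0.32, adjusted p = 0.0431). Tsc22d3 (chrX:140539528-140600659), the glucocorticoid-induced leucine zipper protein, ran from 1826 to 2117 reads at dusk and from 829 to 1324 at dawn, 1.82-fold higher (log2 0.87 ± 0.15, adjusted p = 0.0233). Sult1a1 (chr7:126672865-126676432), a sulfotransferase that conjugates phenols, held 361, 204, 319 and 508 reads at dusk and 103, 136, 47 and 109 at dawn. It was 3.58-fold higher at dusk (log2 1.84 ± 0.31, adjusted p = 0.02).

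Per1 (chr11:69095217-69109960), the repressor of the clock that hormone can induce, held 1331, 1143, 1006 and 1242 reads at dusk and 595, 651, 381 and 453 at dawn. Dusk was 2.30-fold above dawn in mutants (log2 1.20 ± 0.17, adjusted p = 0.0119) and 2.67-fold in controls (log2 1.41 ± 0.27, adjusted p = 0.0337). Of the 20 genes it stayed called in the most alternatives, 22 of 27.

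Because the called genes included hormone-responsive ones, RefSeq promoters (GRCm38.p6, 250 bases before to 50 after a start of transcription) were searched on both strands for the E-box CACGTG, which BMAL1 itself uses, and the glucocorticoid receptor half-site AGAACA. Promoters were matched for 16 of the 20 genes, and those of Zbtb16, Slc7a5, Xdh and Ctgf were not searched. The E-box was in 2 of the 16, Per1 and Fkbp5, against 8.09% of all 27025 genes with a promoter in the table. The half-site was in 5 of the 16, Fam107a, Fzd4, Sult1a1, Tnxb and Tsc22d3, against 21.3% of all genes. Promoters of the called glucocorticoid-responsive genes that held a match follow from 5′ to 3′ in the direction of transcription, with the matching letters in capitals (TGTTCT is the half-site read on the other strand). They lie at chr11:69098699-69098998 on the plus strand for Per1 (E-box from -166), and on the minus strand at chr17:28486100-28486399 for Fkbp5 (E-box from -169), chr7:126676369-126676668 for Sult1a1 (half-sites from -212 and -34) and chrX:140600473-140600772 for Tsc22d3 (half-site from -185), with positions counted from the start of transcription. A further promoter of Per1 and 2 of Tsc22d3 held neither motif. A match describes the letters in this window only.
Per1: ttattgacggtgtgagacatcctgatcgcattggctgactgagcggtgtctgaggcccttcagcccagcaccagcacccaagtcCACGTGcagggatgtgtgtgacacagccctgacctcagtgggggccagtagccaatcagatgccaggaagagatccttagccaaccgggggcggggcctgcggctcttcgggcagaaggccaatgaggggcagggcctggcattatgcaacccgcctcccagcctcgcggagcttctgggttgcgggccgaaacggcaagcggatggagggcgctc
Fkbp5: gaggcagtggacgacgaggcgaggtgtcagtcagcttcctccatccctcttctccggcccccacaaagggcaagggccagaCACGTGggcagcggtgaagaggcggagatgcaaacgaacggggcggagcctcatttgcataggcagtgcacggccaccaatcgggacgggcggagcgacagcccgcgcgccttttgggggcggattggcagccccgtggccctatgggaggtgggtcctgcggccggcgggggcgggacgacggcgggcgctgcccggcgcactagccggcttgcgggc
Sult1a1: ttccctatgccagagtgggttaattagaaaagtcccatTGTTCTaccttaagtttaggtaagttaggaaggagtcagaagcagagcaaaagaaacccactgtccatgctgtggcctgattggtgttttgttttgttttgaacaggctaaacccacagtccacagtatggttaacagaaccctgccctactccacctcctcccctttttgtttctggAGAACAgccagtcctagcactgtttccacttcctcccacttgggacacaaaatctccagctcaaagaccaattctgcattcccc
Tsc22d3: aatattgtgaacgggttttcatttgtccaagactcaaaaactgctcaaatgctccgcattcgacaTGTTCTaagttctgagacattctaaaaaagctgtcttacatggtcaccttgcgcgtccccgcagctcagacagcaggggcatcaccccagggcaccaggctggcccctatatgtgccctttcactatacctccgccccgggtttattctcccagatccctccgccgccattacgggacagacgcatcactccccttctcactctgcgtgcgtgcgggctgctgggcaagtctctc

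The remaining glucocorticoid-responsive members did not pass. Ddit4, an inhibitor of mTOR signalling, had a log2 fold change of 0.90 ± 0.19 with adjusted p = 0.0939 and no overlap between its groups. Cebpd, Klf9 and Sgk1 had values of 0.50, 0.42 and 0.43, and adjusted p of 0.662, 0.694 and 0.790. The metallothioneins Mt1 and Mt2, which also respond to metals, had values of 0.06 and -0.29.

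The other called genes are taken by their known roles, not by lists. Among those of transport and metabolism, Slc7a5 (chr8:121881150-121907694), the barrier's carrier of large neutral amino acids, held 7004, 8126, 7896 and 10500 reads at dusk and 4919, 4073, 4724 and 4315 at dawn. It was 1.88-fold higher at dusk (log2 0.91 ± 0.14, adjusted p = 0.013). Its partner chain Slc3a2 had a log2 fold change of 0.42 ± 0.14 with adjusted p = 0.597. Xdh (chr17:73883895-73950196), which makes uric acid from purines, held 2142, 2280, 3330 and 4104 reads at dusk and 1439, 1050, 1411 and 917 at dawn, 2.49-fold higher (adjusted p = 0.013). Gatm (chr2:122594467-122611303), the first enzyme of creatine synthesis, ran from 1205 to 1590 reads at dusk and 562 to 891 at dawn, 1.96-fold higher (adjusted p = 0.0233). Galnt15 (chr14:32028989-32062197), which starts O-linked sugar chains on proteins, ran from 586 to 747 and 199 to 347 reads, 2.31-fold higher (adjusted p = 0.0119).

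Fzd4 (chr7:89404355-89413134), the receptor for Norrin and Wnt ligands that the retinal and brain barrier vessels need, held 2139, 2149, 2549 and 2648 reads at dusk and 1354, 1236, 1059 and 1530 at dawn, 1.86-fold higher (log2 0.89 ± 0.14, adjusted p = 0.013). Pik3ip1 (chr11:3330401-3342971), an inhibitor of PI3 kinase, ran from 453 to 721 and 198 to 269 reads, 2.42-fold higher (adjusted p = 0.0119). Bcl2l1 (chr2:152780668-152831728), which encodes the survival protein Bcl-xL, ran from 1946 to 2868 and 1070 to 1384 reads, 1.90-fold higher (adjusted p = 0.013). In each of these 3 genes the lowest dusk library lay above the highest dawn library.

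Map3k6 and Paqr5 were named after their values were seen, as were Tmc7 and Tnxb. Map3k6 (chr4:133240818-133252929), a stress-activated kinase, held 342, 227, 816 and 764 reads at dusk and 166, 86, 21 and 19 at dawn. It followed the time points closely, highest at ZT14 and lowest at ZT2, and was 7.46-fold higher at dusk (log2 2.90 ± 0.54, adjusted p = 0.0472). Without ZT22 replicate 1 the difference was 13.1-fold (log2 3.71). Paqr5 (chr9:61953481-62026856), a membrane progestin receptor, ran from 675 to 1130 and 393 to 605 reads, 1.98-fold higher (adjusted p = 0.0431).

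Of the channel and matrix genes, Kcna5 (chr6:126532551-126535412), a voltage-gated potassium channel, held 50, 168, 159 and 209 reads at dusk and 25, 24, 10 and 22 at dawn. Its mean at dawn was the lowest of the 20 genes. The 7.30-fold difference (log2 2.87 ± 0.44, adjusted p = 0.0119) rests on those low dawn counts. Ctgf (chr10:24595442-24598683), a secreted matrix protein and target of YAP, held 654, 637, 611 and 1483 reads at dusk and 335, 194, 142 and 134 at dawn, 4.27-fold higher (log2 2.09 ± 0.32, adjusted p = 0.0119). Its dusk mean was raised by ZT14 replicate 2, and the other 3 dusk libraries lay close together, still above dawn.

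Tnxb (chr17:34670535-34719815), a tenascin of the extracellular matrix, held 363, 145, 451 and 199 reads at dusk and 99, 106, 87 and 92 at dawn, 3.05-fold higher (log2 1.61 ± 0.30, adjusted p = 0.0474). Of the 20 it stayed called in the fewest alternatives, 13 of 27. Tmc7 (chr7:118535841-118584736), a transmembrane channel-like protein, was 2.21-fold higher (adjusted p = 0.0252), with 700 to 1142 and 294 to 560 reads. Fam107a (chr14:8296274-8318023), an actin-binding protein of stress responses, was 1.98-fold higher (adjusted p = 0.0119), with 1772 to 2517 and 983 to 1169 reads. Ccdc85a (chr11:28385685-28584324), a coiled-coil protein, was 2.37-fold higher (adjusted p = 0.013), with 619 to 1089 and 280 to 500 reads.

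The same genes were then read in the control mice, which share no library with the mutants. Controls had 40 genes higher at dusk (0.258% of 15493) and 10 higher at dawn (0.0645%). Of the 20 mutant calls, 16 were also called in controls, all in the same direction, which is 80% of the mutant calls and 32% of the 50 control calls. All 20 were higher at dusk in controls, as were 47.6% of all genes by sign, and all 20 had an unadjusted control p under 0.05, against 3.31% of all genes in that direction. In 18 of the 20 the 4 control dusk libraries lay above the 4 control dawn libraries, against 1.83% of all genes. The control median log2 fold change of the 20 was 1.10.

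The control calls depended on the libraries kept. With a control library left out, 13 to 38 genes were higher at dusk and 3 to 9 higher at dawn, and without TMM scaling 23 and 7. The mutant calls also called in controls then numbered 5 without control ZT2 replicate 1, ZT14 replicate 1 or ZT14 replicate 2, 7 without ZT10 replicate 2, 8 without ZT2 replicate 2 or ZT22 replicate 1, 12 without ZT10 replicate 1 or ZT22 replicate 2, and 10 without TMM scaling. The control libraries at ZT14 and ZT22 carried the i5 index of the 8 mutant libraries, and those at ZT2 and ZT10 carried another. By its library number, control ZT2 replicate 1 belonged to the series of the mutant ZT14 libraries, so the control comparison mixed series too. With the i5 index as covariate, 14 of the 20 mutant calls were called in controls. In each of these settings all 20 were higher at dusk by sign and 19 or 20 had an unadjusted control p under 0.05.

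The 4 genes not called in controls were Galnt15 (control log2 fold change 1.00, adjusted p = 0.0956), Slc7a5 (0.74, 0.0567), Fzd4 (0.81, 0.0567) and Tnxb (0.76, 0.689). When the difference between genotypes was tested directly, 0 of the 20 had an adjusted p under 0.05 and 0 an unadjusted p under 0.05 in the interaction test of edgeR, where 5.86% of all genes had the latter. A missed threshold does not show equal differences. The 95% interval of the mutant minus control log2 difference was -0.92 to 0.50 for Per1, -1.03 to 1.24 for Zbtb16, -1.31 to 0.90 for Fkbp5 and -0.26 to 0.60 for Slc7a5. Tnxb had the smallest p, 0.0686, with an interval of -0.07 to 1.78.

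**Figure D2:**
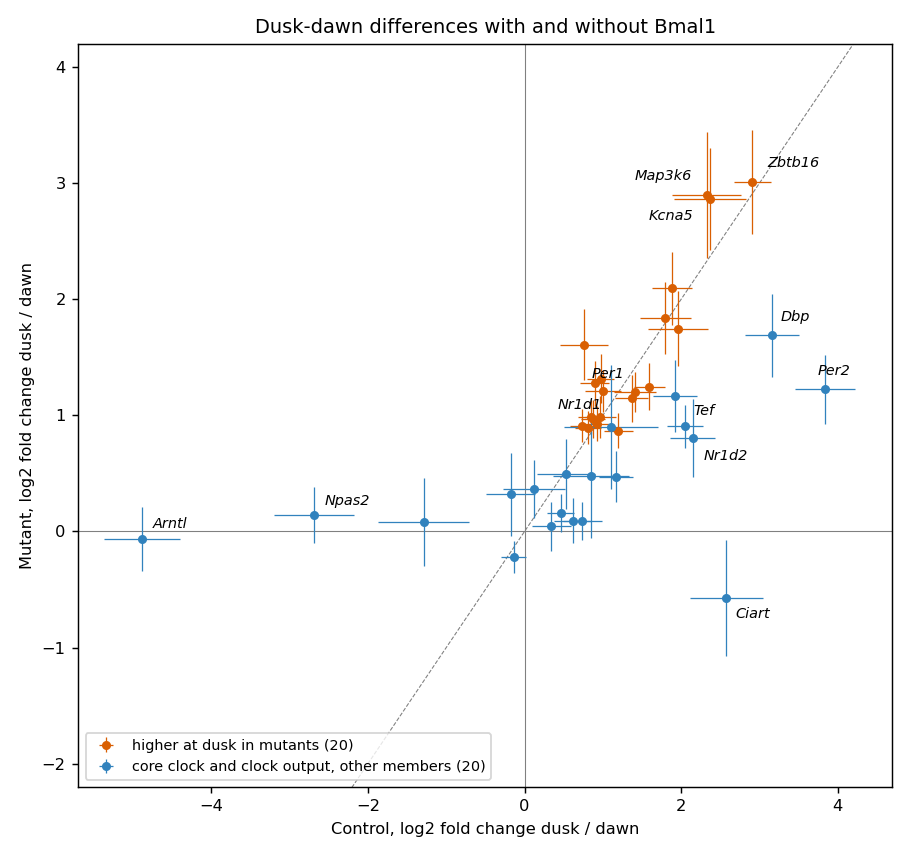
Log2 fold change dusk over dawn in controls (x axis) and mutants (y axis), with bars of 1 standard error. Orange points are the 20 genes higher at dusk in mutants, which all lie above 0 on both axes; blue points are 20 other members of the core clock and clock output lists. The dashed line marks equal values, and Arntl, Ciart, Npas2 and Per2 lie far from it.

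The clock genes were read in the same fits. Of the 12 core clock genes, 1 was called in mutants (Per1, higher at dusk), while in controls 4 were called higher at dusk and 2 higher at dawn. Over all genes the shares called were 0.129% and 0% in mutants and 0.258% and 0.0645% in controls. Of the 10 clock output genes, 0 were called in mutants and 4 in controls. At an unadjusted p under 0.05, 4 core and 3 output genes were higher at dusk in mutants, and 2 of the output genes had an adjusted p under 0.1, which 0.265% of all genes had in that direction (3.26% for the unadjusted threshold).

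Among the repressors, Per2 held 211, 121, 381 and 327 reads at dusk and 114, 99, 131 and 107 at dawn in mutants. A ZT10 library lay inside the dawn range and the ZT14 libraries lay above it, and the log2 fold change of 1.22 ± 0.30 did not pass (adjusted p = 0.19). Controls held 657, 631, 822 and 1169 reads at dusk and 88, 95, 36 and 22 at dawn, a log2 fold change of 3.84. Mutants differed from controls by -2.61 (95% interval -3.68 to -1.54, unadjusted p = 4.07e-05, adjusted p = 0.0902). Per3 held 136, 117, 109 and 81 mutant reads at dusk and 36, 56, 58 and 49 at dawn, without overlap, with a log2 fold change of 1.17 ± 0.31 (adjusted p = 0.289). Its control counts were several times higher at dusk, 450 to 856, with a log2 fold change of 1.92. Cry1 and Cry2, the cryptochrome partners of the Per proteins, had mutant log2 fold changes of 0.09 ± 0.16 and 0.09 ± 0.19.

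Nr1d1 and Nr1d2 encode the REV-ERB repressors of Bmal1. Nr1d2 held 148, 174, 217 and 134 mutant reads at dusk and 87, 56, 64 and 183 at dawn, so that a ZT2 library lay inside the dusk range. Its log2 fold change was 0.81 ± 0.33 (adjusted p = 0.802) against 2.15 in controls. Nr1d1 ran from 39 to 158 reads at dusk and 15 to 113 at dawn (log2 0.90 ± 0.54, adjusted p = 0.922). Rora, which encodes an activating counterpart, had a value of 0.16 ± 0.16.

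On the activating arm, Clock had a mutant log2 fold change of -0.22 ± 0.14. Npas2, the CLOCK homologue, held 177, 179, 263 and 276 reads at dusk and 243, 222, 127 and 233 at dawn in mutants, overlapping. In controls it held 25, 7, 14 and 12 at dusk and 99, 138, 96 and 62 at dawn, fully separated.

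The output factors Dbp and Tef came closest to the threshold. Dbp held 272, 181, 135 and 130 mutant reads at dusk and 26, 52, 53 and 94 at dawn, without overlap, with a log2 fold change of 1.69 ± 0.36 (adjusted p = 0.0939) against 3.16 in controls. Tef held 457, 328, 413 and 446 reads at dusk and 258, 235, 177 and 218 at dawn, also without overlap, with 0.91 ± 0.19 (adjusted p = 0.0794) against 2.05 in controls. The mutant minus control difference was -1.47 for Dbp (95% interval -2.53 to -0.41, unadjusted p = 0.00852) and -1.14 for Tef (-1.75 to -0.53, unadjusted p = 0.000827), neither passing adjustment. Hlf, the third factor of this family, had 0.47 ± 0.22 in mutants and 1.17 in controls.

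Ciart, a repressor of the CLOCK and BMAL1 pair, held 39, 15, 28 and 67 mutant reads at dusk and 57, 32, 39 and 98 at dawn. The groups overlapped, with a log2 fold change of -0.57 ± 0.50, whereas controls were higher at dusk by 2.58 without overlap. The difference of -3.15 had an unadjusted p of 0.000177 and an adjusted p of 0.25. The other outputs had mutant values of 0.08 (Nfil3), 0.04 (Bhlhe40), 0.37 (Bhlhe41), 0.32 (Usp2), 0.48 (Wee1) and 0.49 (Noct), each with an adjusted p above 0.9.

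**Figure D3:**
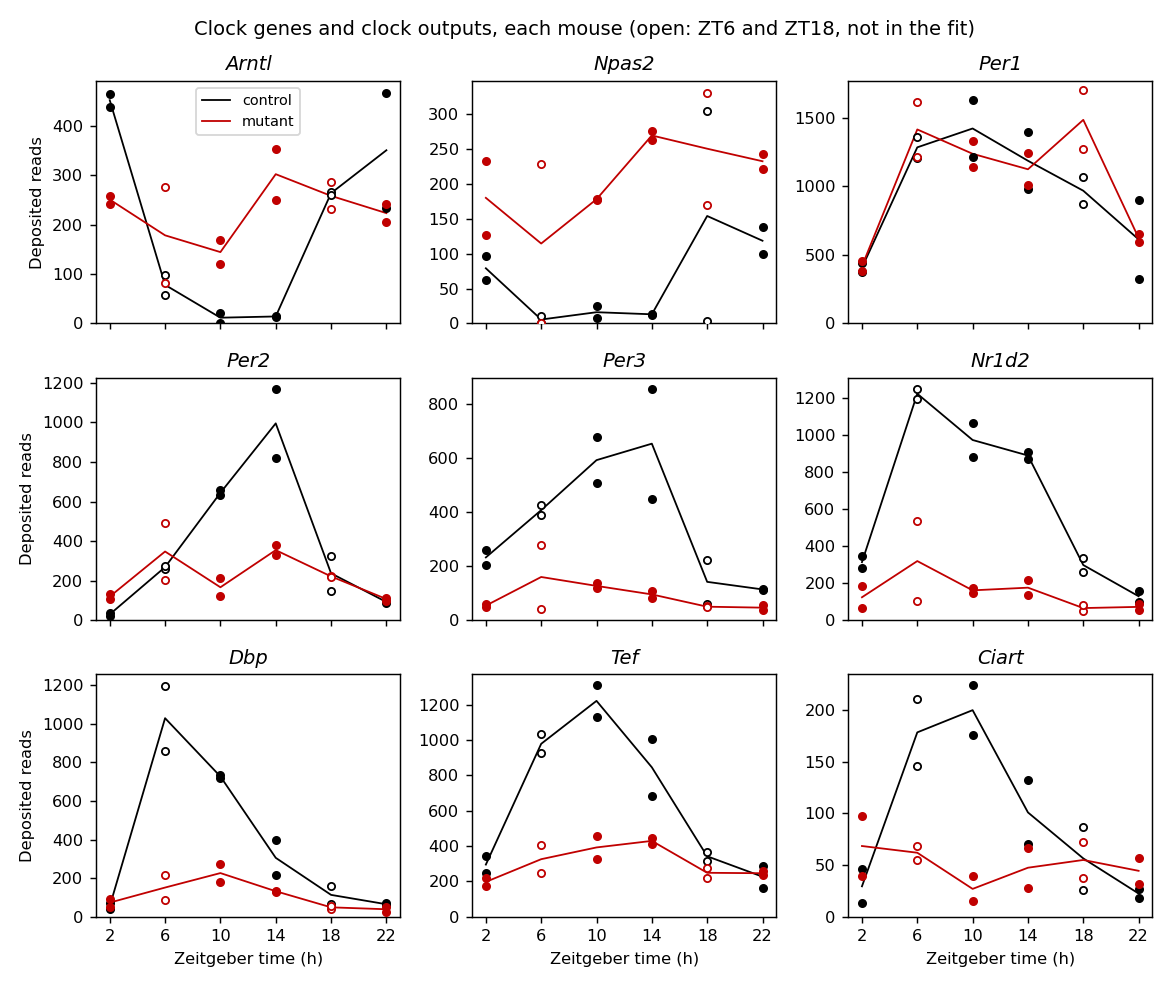
Deposited reads (y axis) of 9 clock genes and clock outputs over Zeitgeber time in hours (x axis), with a point for each mouse and lines through the means of 2 mice, controls in black and mutants in red. Open points at ZT6 and ZT18 were not part of the comparison and, like the mean lines there, include the 2 libraries that went against their labels. Per1 at dawn was 381 to 651 reads in mutants and 326 to 899 in controls, while Arntl at dusk was 1 to 22 reads in controls and 120 to 354 in mutants.

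Over all genes, the dusk-dawn difference was more positive in mutants for 4 genes (0.0258% of 15493) and more negative for 0 (0%) by edgeR at an adjusted p under 0.05. Unadjusted, the counts were 458 (2.96%) and 450 (2.9%), and DESeq2 called 15 and 8. Limma-voom called 1 and 0 (Mmp15), a fit to all 24 libraries 2 and 1, and the same fit less the 2 libraries against their labels 8 and 3. The 4 genes were Arntl and Npas2, given above, with Mmp15, a membrane-bound metalloproteinase, and Fam124b. Controls held 198 to 225 Mmp15 reads at dusk and 543 to 1074 at dawn, whereas mutants held 902 to 1175 and 840 to 1210. Mutant libraries at both times thus reached the control dawn level. Fam124b showed the same layout, with 4 to 18 reads at dusk and 131 to 195 at dawn in controls and 147 to 211 and 165 to 280 in mutants.

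The mutant minus control differences in log2 fold change were 4.83 for Arntl (95% interval 3.65 to 6.00, adjusted p = 0.000242), 1.94 for Mmp15 (1.39 to 2.48, adjusted p = 0.00128), 3.28 for Fam124b (2.33 to 4.23, adjusted p = 0.00152) and 2.84 for Npas2 (1.85 to 3.82, adjusted p = 0.017). Arntl and Mmp15 were the 2 of these genes called with all 24 libraries, and all 4 were called less the 2 libraries against their labels. Npas2 was not called without control ZT14 replicate 2 or without mutant ZT2 replicate 1, ZT14 replicate 1, ZT14 replicate 2 or ZT22 replicate 2, while the other 3 stayed called with any library left out. All 4 were called higher at dawn in controls. Their mutant log2 fold changes ran from -0.41 to 0.14, and none was called. The value of -0.41 ± 0.22 was that of Fam124b, in the direction of controls (95% interval -0.88 to 0.06, edgeR unadjusted p = 0.0829). Vwa3a was next, with 2.40 and adjusted p = 0.0807. Of the 10 genes higher at dawn in controls, 1 (Fbn1, named after its values were seen) had an unadjusted mutant p under 0.05 in the same direction, against 2.6% of all genes, and 1 (Vwa3a) in the opposite direction. Of the 40 higher at dusk, 32 had one in the same direction, against 3.26% of all genes.

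At dawn no gene passed in mutants. Lox, Gbp9, Cxcl1 and Casq2 were among the genes with the smallest p-values in that direction. Lox, which crosslinks collagen and elastin, held 41, 12, 29 and 24 reads at dusk and 164, 102, 90 and 66 at dawn (log2 -1.97 ± 0.42, adjusted p = 0.0939). The groups did not overlap, as in 2.01% of all genes in that direction.

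Gbp9, an interferon-induced GTPase, had a log2 fold change of -0.67 ± 0.16 (adjusted p = 0.168), and Casq2, a calcium store protein, one of -1.25 ± 0.31 (adjusted p = 0.19). Cxcl1, a neutrophil attractant, held 4, 0, 3 and 9 reads at dusk and 68, 42, 75 and 11 at dawn (log2 -3.56 ± 0.85, adjusted p = 0.168). Its dusk counts were near 0, and the ZT2 library with 11 reads lay next to them.

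The drug efflux pumps of the barrier, the subject of the study, had 0 of 8 members called in mutants, with a median log2 fold change of 0.25. Over all genes 0.129% were called higher at dusk and 0% at dawn, so 0 of 8 is no result about the pumps. At an unadjusted p under 0.05, 2 were higher at dusk (3.26% of all genes), and 7 lay above 0 (48.6% of all genes). Abcb1a, which encodes the main P-glycoprotein of the barrier and was named after its values were seen, had a log2 fold change of 0.12 ± 0.13 (adjusted p = 0.977) in mutants and 0.25 ± 0.15 (adjusted p = 0.878) in controls. Abcc4 held 3525, 3166, 4410 and 5374 reads at dusk and 3274, 2447, 2386 and 2497 at dawn (log2 0.66 ± 0.17, adjusted p = 0.247), with a ZT22 library inside the dusk range. Abcg2, the breast cancer resistance protein, ran from 2474 to 3501 and 1760 to 2200 reads without overlap (log2 0.55 ± 0.14, adjusted p = 0.255), and controls had 0.79 (adjusted p = 0.0423). The genotype difference for Abcg2 was -0.24 with an unadjusted p of 0.269. Abcc10 had a mutant value of 0.73 ± 0.43 at 38 to 71 and 17 to 48 reads.

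Of 14 magnesium transport genes, 0 were called, where 0.129% of all genes were called higher at dusk and 0% at dawn. That count is no result about them. Of these 14 genes, 11 lay below 0, as did 51.4% of all genes, with a median of -0.13. Mmgt1, Magt1 and Trpm6 had the smallest p-values, with log2 fold changes of -0.49, -0.29 and -0.40 and an adjusted p of 0.883 or more. Trpm7, a magnesium-permeable channel named after its values were seen, held 988, 755, 917 and 860 reads at dusk and 997, 890, 1064 and 893 at dawn in mutants, overlapping (log2 -0.11 ± 0.14, adjusted p = 0.977). Controls had 0.39 (unadjusted p = 0.0269, adjusted p = 0.695), and the mutant minus control difference was -0.50 (95% interval -0.92 to -0.08, unadjusted p = 0.0225, adjusted p = 0.84).

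Of 19 barrier nutrient transporters, 1 was called higher at dusk, Slc7a5, described above. At dawn 0 were called, and the shares of all genes were 0.129% and 0%. At an unadjusted p under 0.05, 6 were higher at dusk and 2 higher at dawn, against 3.26% and 2.6% of all genes. Slc2a1, the glucose carrier of the barrier, had a log2 fold change of 0.83 ± 0.21 (adjusted p = 0.202) without overlap between groups, and Slc38a5, a glutamine carrier, one of -0.71 ± 0.19 (adjusted p = 0.277), in the other direction and also without overlap. Slc7a5 was also the only member of the 24 amino acid response (ATF4) genes called, against 0.129% of all genes called higher at dusk. At an unadjusted p under 0.05, 2 of the 24 were higher at dusk and 0 higher at dawn, against 3.26% and 2.6% of all genes. The median of that list was 0.03.

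**Figure D4:**
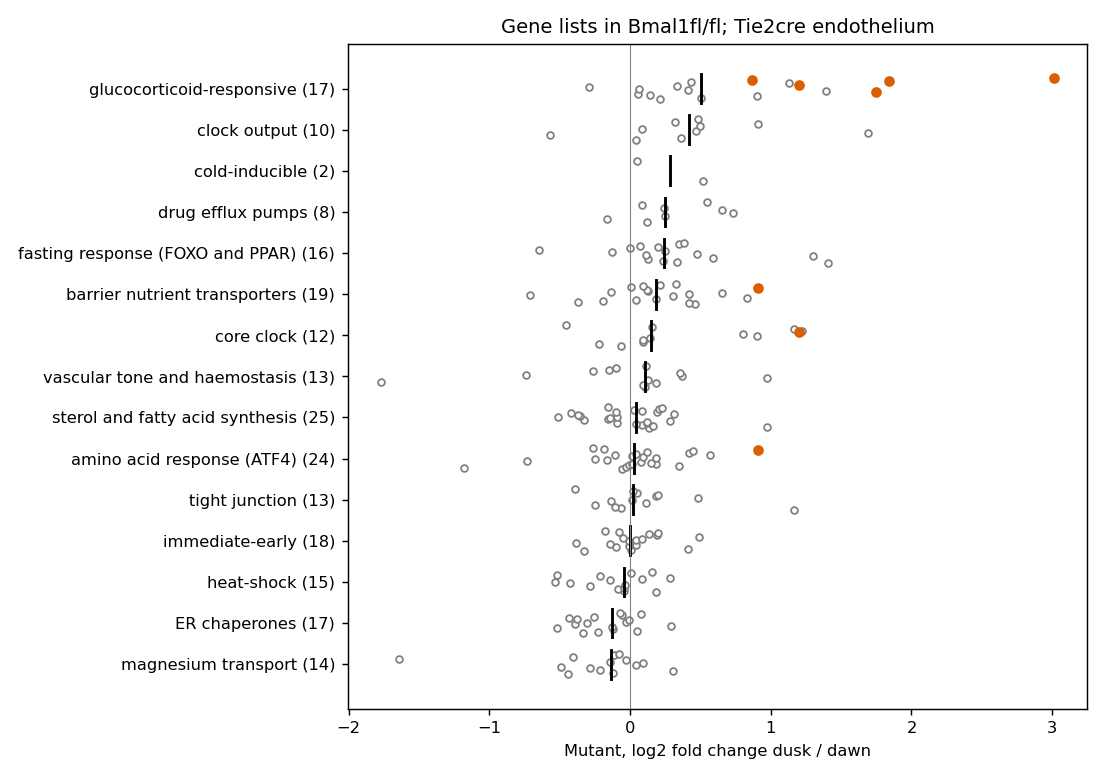
Log2 fold change dusk over dawn in mutants (x axis) for every tested member of the 15 gene lists (y axis, number tested in parentheses). Filled orange points passed an adjusted p of 0.05, open points did not, and black bars are list medians, from -0.13 for magnesium transport to 0.50 for glucocorticoid-responsive genes.

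The lists that follow, among them those for other daily signals, each held 0 calls. That is no result about them where 0.129% of all genes were called higher at dusk and 0% at dawn. Heat-shock genes, which track body temperature, had 0 of 15 members called and 0 at an unadjusted p under 0.05, with a median of -0.04 and Hsp90aa1, Hspe1 and Hspa1b at -0.28, -0.52 and -0.54. Hspa1b shares most of its sequence with a neighbouring copy, so its counts are uncertain. The cold-inducible Cirbp and Rbm3 had 0.52 ± 0.47 and 0.05 ± 0.16. Immediate-early genes, which respond within minutes to stimuli and to cell isolation, had 0 of 18 called and a median of 0.00, with Klf2, a flow-responsive factor, at 0.49, Fosb at -0.38 and Cyr61 at 0.41.

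Fasting-response genes had 0 of 16 called, 5 higher at dusk at an unadjusted p under 0.05 (3.26% of all genes) and a median of 0.24. Foxo3, a transcription factor restrained by insulin, had 0.59 ± 0.17 (adjusted p = 0.38), the insulin receptor Insr 0.47 ± 0.14 (adjusted p = 0.458) and the mitochondrial carrier Ucp2 0.38 ± 0.14 (adjusted p = 0.69). Sterol and fatty acid synthesis had 0 of 25 called. Its nearest member was Acacb, an acetyl-CoA carboxylase, with 859, 631, 1006 and 1287 reads at dusk and 579, 566, 371 and 437 at dawn (log2 0.98 ± 0.21, adjusted p = 0.0939), while controls had 0.14. Srebf2, a regulator of sterol synthesis, had 0.23.

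Chaperones of the endoplasmic reticulum had 0 of 17 called. Of these, 14 lay below 0, as did 51.4% of all genes, and 5 were higher at dawn at an unadjusted p under 0.05, against 2.6% of all genes. The protein disulfide isomerases Pdia4 and Pdia3 had -0.43 ± 0.13 and -0.38 ± 0.13 (adjusted p = 0.413 and 0.63), each with all dusk libraries below all dawn libraries, and Hsp90b1 had -0.39 ± 0.14 (adjusted p = 0.662). Tight junction genes had 0 of 13 called and a median of 0.02, with Cgn, Jam3 and Ocln at 1.17, 0.48 and 0.20.

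Genes of vascular tone and haemostasis had 0 of 13 called. Plat, the tissue plasminogen activator that dissolves clots, held 2187, 2490, 3174 and 4155 reads at dusk and 2037, 1382, 1453 and 1319 at dawn, without overlap (log2 0.97 ± 0.20, adjusted p = 0.0715). Controls had 0.03, and the difference of 0.95 had a 95% interval of 0.28 to 1.62 (unadjusted p = 0.00782, adjusted p = 0.73). F8 and Ptgs1 had -1.77 ± 0.69 and 0.36 ± 0.20.

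The 20 genes were also read at the time points outside the comparison. Mutant libraries at ZT6 and ZT18 carried another i5 index than the mutant libraries compared, so time point and index are confounded there. Mitochondrial genes took 2.68 to 3.9% of their reads, against 5.78 to 14.3% in the mutant libraries compared. Bhlhe41 held 6 and 7 reads at ZT6 and 20 and 20 at ZT18, against 160 to 253 at dusk and 102 to 229 at dawn. The levels that follow therefore cannot place the genes in the day. The ZT18 mean lay between the lowest and highest of the 4 means in 18 of the 20 genes, and the ZT6 mean in 16, or 19 with ZT6 replicate 2 alone. The ZT6 mean was below both dusk means in 12 genes, or 14 with replicate 2 alone, and the ZT18 mean in 14. Zbtb16 was one of these and held 331 and 439 reads at ZT6 and 163 and 375 at ZT18. The first ZT6 value is replicate 1, which went against its label. In contrast, the ZT6 mean lay above both dusk means in Fzd4, Galnt15, Per1 and Tsc22d3, and in Fzd4 alone with replicate 2, and the ZT18 mean lay above both in Per1 and Tsc22d3. Per1 held 1614 (replicate 1) and 1215 reads at ZT6 and 1270 and 1699 at ZT18.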

How the data were processed

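RNA of CD31-sorted brain endothelial cells, sorted from a single mouse per library, was made into strand-specific libraries by the authors with a kit for low input. Per the labels and methods, the authors aligned reads to GRCm38 with STAR (2.5.3a), merged lanes with SAMtools (1.3.1) and normalized and counted reads per Ensembl gene with PORT, which brings libraries to a common number of gene reads by resampling. The deposited values are whole-number counts for 53465 genes, so the totals per library are near equal and do not show the sequencing depth.

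Genes with at least 5 reads in at least 6 control or 6 mutant libraries, a filter taken from the study, were kept (15493). Counts were tested with edgeR (4.0.16, R 4.3.3) by glmQLFit and glmQLFTest after TMM scaling, two-sided, with Benjamini-Hochberg adjustment over all genes kept: dusk against dawn in 8 mutant libraries, in 8 control libraries, and their interaction in all 16. Fold changes come from these fits, and reads quoted per library are as deposited. Shares of reads were compared by exact permutation, 4 against 4. Biological coefficients of variation were 38.3% in mutants and 49.0% in controls. DESeq2 (1.42.0) and limma-voom (3.58.1) were alternatives. The fits were tested on simulated data.

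Named genes were the 15 smallest p-values among called genes in each direction, or the 5 smallest where fewer than 5 passed, the 5 smallest for the genotype difference, every core clock and clock output gene, and the called or 3 leading members of each other list; some are not reported here. The members, time windows and lists were chosen with earlier results of these data known. Replicate numbers were not used to pair mice. Gene positions are from the GENCODE annotation of GRCm38.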

Additional observations from a re-analysis of the deposited data

Results flagged for a closer look

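Of 176 groups of 4 libraries, 12 held a library far from the other 3 by Dixon's criterion, where chance gives about 5% of groups. Among called genes these were Zbtb16 in mutant ZT22 replicate 1 (317 reads, the highest at dawn) and Ctgf in ZT14 replicate 2 (1483 reads, the highest at dusk). Among clock and other genes, Cry2 was lowest in ZT10 replicate 2 (234 reads), Hsp90aa1 lowest in ZT14 replicate 2 (2845), Hspa1b lowest in ZT2 replicate 2 (340), Rbm3 highest in ZT2 replicate 1 (490), Fosb highest in ZT10 replicate 1 (9207) and Abcc4 highest in ZT22 replicate 1 (3274). Mmgt1 was highest in ZT10 replicate 2 (238) at dusk and in ZT2 replicate 1 (242) at dawn. The astrocyte marker share was highest in ZT10 replicate 2 at 0.331%, and the platelet and leukocyte share in ZT2 replicate 2 at 0.00315%.

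The difference between dusk and dawn differed between genotypes by the edgeR interaction test for Arntl (4.83 on the log2 scale, mutant minus control), Fam124b (3.28), Npas2 (2.84) and Mmp15 (1.94).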

How the results depend on the processing

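In mutants, the 20 genes higher at dusk became 71 with DESeq2, 97 without a filter, 39 with time points as groups, 57 with all 24 libraries, 41 at an adjusted p under 0.1, 55 with the 12 mutant libraries, 0 for ZT10 alone, 118 for ZT14 alone, 0 against ZT22 alone and 11 against ZT2 alone, and ranged from 0 to 51 when a library was left out. Genes higher at dawn numbered 10, 19, 2 (all 24 libraries), 2 (adjusted p under 0.1), 3, 13 (ZT14 alone), 3 (against ZT2 alone) and 1 (mitochondrial share as covariate), and 0 to 1 with a library left out. Chosen after seeing the data, all libraries less the 2 against their labels gave 69 and 2, and the 12 mutant libraries less the one against its label 69 and 4, each with all 20 still called. All 20 were also called without a filter, with time points as groups, all 24 libraries, the 12 mutant libraries, ZT14 alone and without ZT10 replicate 2, but 19 of the 20 with DESeq2, 18 without ZT22 replicate 1, 17 without ZT10 replicate 1 and 8 against ZT2 alone. Other cell type markers as a covariate left all 20 called and the mitochondrial share 17. The number of samples fell in the fits with fewer libraries, and the cause of the other changes was not tested.

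In controls, genes higher at dusk numbered 23 without TMM, 88 with DESeq2, 111 without a filter, 104 with all 24 libraries and 13 to 38 with a library left out, and genes higher at dawn 7, 23, 58, 30 and 3 to 9 in these settings. All libraries less the 2 against their labels gave 119 and 38. The genotype difference gave 15 more positive genes with DESeq2, 1 with limma-voom, 34 without a filter, 2 with all 24 libraries and 7 at an adjusted p under 0.1, 8 less the 2 libraries against their labels, and 3 to 5 with a library left out. It gave 8 (DESeq2), 35 (no filter), 1 (all 24 libraries) and 1 (adjusted p under 0.1) more negative, 3 less those 2 libraries, 1 with time points as groups, 1 with the i5 index as covariate and 0 to 1 with a library left out.

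The mice came from independent experiments, and whether a replicate number marks an experiment is not given in the sources used here. Deviations of samples with the same number had correlations of 0.00639 to 0.0439 across genes, and the numbers were not used as pairs. With a replicate block 18 genes were higher at dusk in mutants, all among the 20, and 31 and 8 in controls.

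Of the named genes, those whose mutant fold change changed sign were not called in the mutant comparison. For ZT10 alone, the log2 fold changes were -0.204 for Npas2, -0.11 for Vwa3a, -0.0499 for Cry2, -0.0721 for Nfil3, -0.034 for Bhlhe40, -0.0339 for Noct, -0.0644 for Klf2, 0.0699 for Fosb and -0.138 for Cyr61. For ZT14 alone they were 0.397 for Arntl, -0.0887 for Cirbp, -0.0567 for Rbm3 and 0.104 for Trpm6. Against ZT22 alone they were 0.0266 for Arntl, -0.0296 for Npas2, -0.409 for Nfil3, -0.161 for Bhlhe40 and -0.245 for Cyr61. Against ZT2 alone they were -0.0553 for Mmp15, -0.0372 for Rbm3 and 0.462 for Fosb. With the mitochondrial share as covariate they were 0.0258 for Arntl, -0.0696 for Nfil3 and -0.0982 for Bhlhe40. With a library left out, the ranges were -0.39 to 0.153 for Arntl, -0.0295 to 0.247 for Npas2, -0.0138 to 0.158 for Cry1, -0.168 to 0.319 for Nfil3, -0.109 to 0.197 for Bhlhe40, -0.100 to 0.619 for Usp2 and -0.0926 to 0.979 for Cyr61. The differences in marker shares (percentage points, dusk minus dawn) ranged from -0.0179 to 0.0251 for mural cells, from -0.0013 to 0.000874 for neurons, from -2.02e-05 to 0.000686 for platelets and leukocytes, from -0.0238 to 0.075 for microglia and macrophages, from -0.015 to 0.039 for astrocytes, from -0.028 to 0.0813 for endothelial cells and from -0.00899 to 0.0124 for red blood cells.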
